A study of Rattus norvegicus with 2 samples.

Results

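The genes described here encode the ligands and receptors of axon guidance, and they were measured in dorsal root ganglia (DRGs), which hold the cell bodies of sensory neurons (SNs), together with satellite glia, Schwann cells, vessels and connective tissue. Members were taken by gene symbol, from the semaphorin, plexin, neuropilin, ephrin, Eph, Slit, Robo, netrin, Dcc, Unc5, neogenin and repulsive guidance molecule families, and 60 of the 14217 genes on the arrays met the symbol rule, each read from 1 probe set, the one whose log2 signal was highest on average. Of the 60, 29 encode ligands and 31 encode receptors. One of the receptors by symbol, Unc5cl, encodes a death domain protein that resembles only the cytoplasmic part of Unc5. The tumor-side group was 1 array of DRGs from the side of the right tibia, into whose marrow 100000 cells of the line IP-B12 had been inoculated, which derives from a lung carcinoma of the rat and grows osteolytically in bone, and the control side was 1 array of DRGs from the side of the left tibia. The rats were 4-week-old female Sprague-Dawley rats and the ganglia were taken 14 days after inoculation. How many rats gave the RNA is not stated, and no injection of the left tibia is described, so the tumor and the inoculation procedure cannot be told apart.

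Each side is a single array, so differences have neither a replicate error nor a test, and each value below describes these arrays. Levels are MAS 5.0 signal intensities on a linear scale as the authors deposited them, and differences are log2 ratios of tumor side over control side. Signals of different genes come from different probes and were not ranked against each other. A gene was counted above the signal rule where its higher signal was at least the median of the array concerned, which was 72.7 on the tumor side and 69.0 on the control side. Of the 60 genes, 43 were above the rule. Because whole ganglia were measured, fewer cells of a type and less RNA per cell cannot be told apart.

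Axon guidance cues steer growth cones by attraction or repulsion. Secreted class 3 semaphorins act through neuropilins and plexins, transmembrane semaphorins mostly through plexins alone, ephrins through Eph receptor kinases, Slits through Robos, and netrins through Dcc, neogenin and Unc5. In adult DRGs many of these genes stay expressed, in SNs as well as in glia, vessels and connective tissue, and several are known from nerve injury and from the patterning of peripheral nerves.

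None of the 43 genes above the rule was at least 2-fold higher on the tumor side and none was at least 2-fold lower, where over all 9691 genes above the rule 0.134% were at least 2-fold higher and 0.186% at least 2-fold lower. Past a fold of 1.5 lay 2 of the 43 on the higher side, Sema3d and Sema6b, which is 4.65% against 1.19% of all genes above the rule. None was at least 1.5-fold lower, against 0.743% of all genes. These counts depended on the scaling, as after quantile normalization, median centring or loess neither Sema3d nor Sema6b reached a fold of 1.5, while Ephb1 was at least 1.5-fold lower. With the pseudocount none of the 43 passed that fold in either direction. The median log2 ratio of the 43 was 0.02, with a range from -0.53 for Ephb1 to 0.64 for Sema3d, while over all genes above the rule it was 0.08, called the median gene below. Of the 43, 17 lay above that median gene and 26 did not. Only Plxnc1 changed its side of the median gene under another scaling, but when all probe sets of a gene were averaged, 23 of the 43 lay above the median gene and the median of the 43 was 0.10, against 0.087 for all genes. The median over all 60 genes at any signal was 0.04. Of the 43, Sema4g met the signal rule through the tumor side alone and Sema4d, Sema6c, Ephb1 and Unc5b through the control side alone, and for the other 38 neither signal was below its array median.

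**Figure D1:**
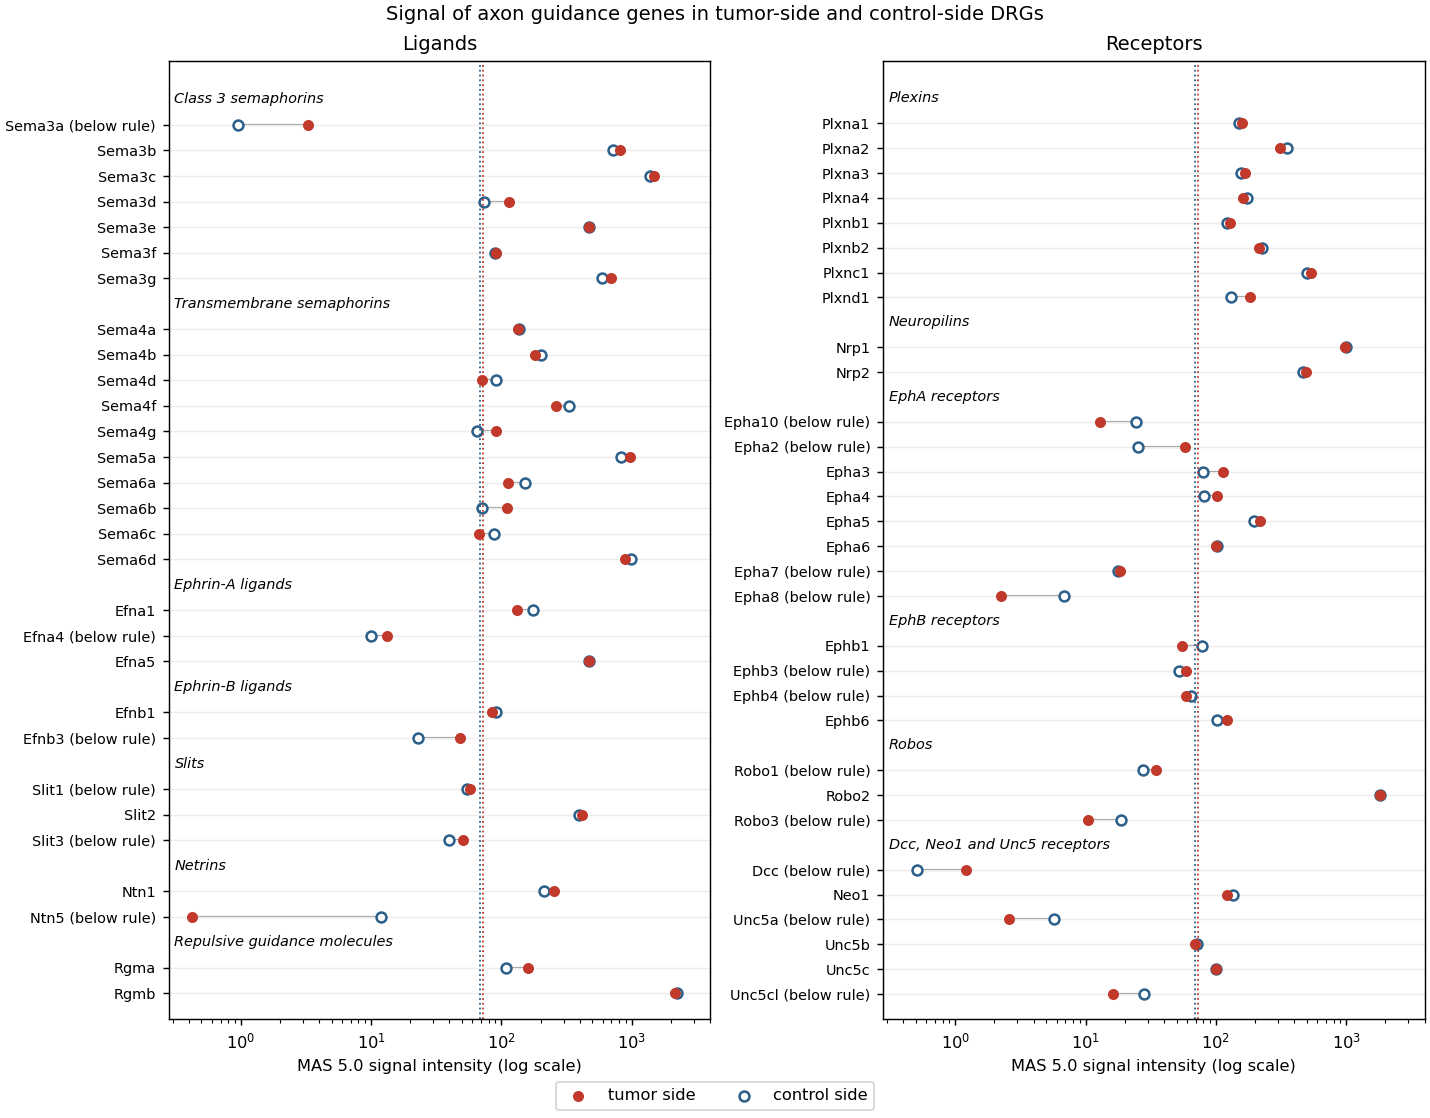
MAS 5.0 signal intensity of all 60 genes on a log scale, ligands on the left and receptors on the right, with filled red points for the tumor-side array and open blue points for the control-side array, joined by a grey line. Dotted lines mark the array medians, 72.7 on the tumor side and 69.0 on the control side, and genes below the signal rule are marked. The signals of most genes above the rule lie close together, while Sema3d (115 and 73.8) and Sema6b (110 and 70.7) lie farther apart.

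Class 3 semaphorins are secreted and act mainly as repellents for axons. In the deposited values all 6 members above the rule had a higher signal on the tumor side, as did 6867 of all 9691 genes above the rule. Their log2 ratios ran from 0.01 to 0.64 with a median of 0.14, and 4 of the 6 lay above the median gene, which Sema3e and Sema3f did not. Sema3e was at -0.083 after quantile normalization, -0.072 after median centring and -0.077 after loess. Sema3d, a guidance cue of peripheral axons and of the vasculature, had a signal of 115 on the tumor side and 73.8 on the control side, a log2 ratio of 0.64 and a fold of 1.56. Sema3g, known from endothelium, had 692 on the tumor side and 595 on the control side. Sema3b, a ligand of neuropilins, had 820 on the tumor side and 721 on the control side. These genes stood at log2 ratios of 0.22 and 0.19, less far from the median gene than Sema3d. Sema3c, which also guides neural crest cells, had 1482 on the tumor side and 1386 on the control side. Sema3f, a ligand of Nrp2, had 91.7 on the tumor side and 89.4 on the control side. Sema3e, which binds Plxnd1 without a neuropilin, had 474 on the tumor side and 470 on the control side. The signals of these genes were thus nearly alike on both arrays. Sema3a, the best-known repellent of SN axons, had 3.31 on the tumor side and 0.952 on the control side, not above the trp control probe sets, which target a bacterial transcript and reached 4.63 on the tumor-side and 5.39 on the control-side array. Its level was therefore not distinguished from that of these control probe sets, and no fold is given.

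Among genes above the rule, the transmembrane semaphorins, the largest family, had a wider range of log2 ratios than any other. Their SD of 0.38 was smaller than that of EphB receptors, 0.57, and of repulsive guidance molecules, 0.44, with 2 genes each. All 10 transmembrane semaphorins were above the rule, and their log2 ratios ran from -0.42 for Sema6a to 0.64 for Sema6b, with a median of -0.14. On the tumor side 7 had a lower signal and 3 a higher one, and the same 3 lay above the median gene. Over all 9691 genes above the rule, 2824 had a lower signal on the tumor side and 6867 a higher one. Sema6b, a ligand of A-type plexins, had 110 on the tumor side and 70.7 on the control side, a fold of 1.55. Sema4g had 90.5 on the tumor side and 64.9 on the control side, a fold of 1.39. Sema5a, which carries thrombospondin repeats and can attract or repel axons, had 978 on the tumor side and 823 on the control side. These were the members with a higher signal on the tumor side. Sema6a, which binds Plxna2 and Plxna4, had 113 on the tumor side and 151 on the control side, a log2 ratio of -0.42. Sema6c had 67.5 on the tumor side and 87.9 on the control side, a log2 ratio of -0.38. Sema4d, the ligand of Plxnb1, had 70.7 on the tumor side and 91.0 on the control side, a log2 ratio of -0.36. On their brightest probe sets, members of the class 6 group, which signal through A-type plexins, thus stood at both ends of the family. With the mean over all probe sets, which takes in probe sets below the rule, Sema6a was at 0.63 and Sema6c at 0.25, while Sema6b has 1 probe set. Sema4f had 264 on the tumor side and 330 on the control side, a log2 ratio of -0.32. Sema6d, a ligand of Plxna1, had 886 on the tumor side and 980 on the control side. The last pair, Sema4b with 183 on the tumor side and 201 on the control side and Sema4a with 134 and 138 in the same order, differed least within this family.

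Plexins, the signalling receptors of semaphorins, had nearly the same signals on both sides except for Plxnd1. All 8 were above the rule, with a median log2 ratio of 0.08, and 7 of them lay between -0.17 and 0.10. Plxnd1, a receptor of Sema3e with a known role in vessels, had 182 on the tumor side and 131 on the control side, a log2 ratio of 0.48. Plxna2 had 311 on the tumor side and 349 on the control side, the lowest ratio of the family at -0.17. Another probe set of Plxna2 with nearly the same mean signal, 344 on the tumor side and 311 on the control side, gave 0.15. Plxna4, a partner of neuropilins in SNs, had 162 on the tumor side and 173 on the control side. Plxnc1, the receptor of Sema7a, had 534 on the tumor side and 504 on the control side, and Sema7a itself was not analysed here. Plxnb1, the receptor of Sema4d, had 129 on the tumor side and 121 on the control side, so that it and its ligand had ratios of opposite sign in the deposited values. With median-centred log2 ratios Plxnb1 was at 0.0024, close to no difference. The remaining plexins, Plxna1, Plxna3 and Plxnb2, had log2 ratios of 0.07, 0.10 and -0.08. The neuropilins, the binding subunits for class 3 semaphorins, were also close on both sides. Nrp1 had 984 on the tumor side and 1004 on the control side, and Nrp2 had 493 on the tumor side and 469 on the control side.

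**Figure D2:**
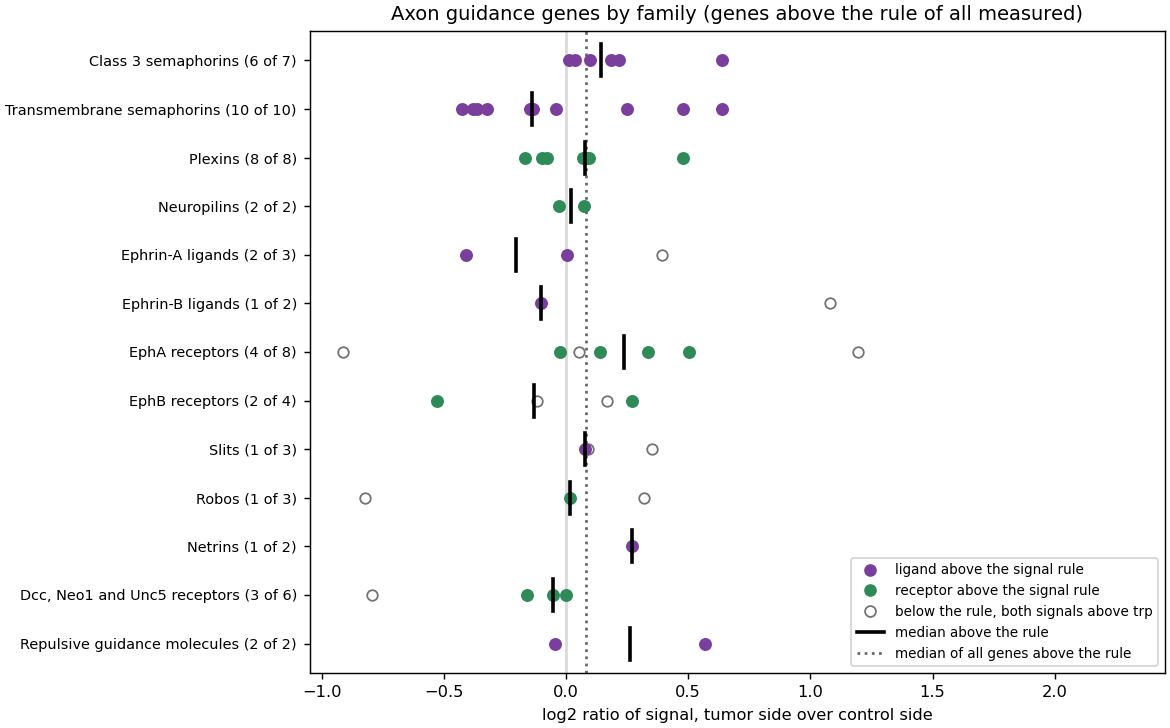
Log2 ratio of signal, tumor side over control side, for the members of each of the 13 families, 1 point per gene, with the number above the signal rule of all measured in brackets. Filled points are genes above the rule, open points genes below it with both signals above the trp control probe sets, and black bars the family medians above the rule. The dotted line stands at 0.08, the ratio of the median gene. Transmembrane semaphorins spread from -0.42 to 0.64, while 7 of 8 plexins lie between -0.17 and 0.10.

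Eph receptors are kinases for membrane-bound ephrins, with which they sort axons by repulsion at cell contacts. Of 8 EphA genes, 4 were above the rule, with a median log2 ratio of 0.24, and 3 of the 4 lay above the median gene. Epha3 had 113 on the tumor side and 79.9 on the control side, a log2 ratio of 0.50. Epha4, a receptor for both ephrin classes, had 102 on the tumor side and 81.1 on the control side, a log2 ratio of 0.33. Epha5 had 218 on the tumor side and 198 on the control side. Epha6, with 100.2 on the tumor side and 102 on the control side, did not share this direction. Of 4 EphB genes, 2 were above the rule and they went opposite ways. Ephb6, which lacks kinase activity, had 123 on the tumor side and 102 on the control side. Ephb1 had 54.6 on the tumor side and 78.8 on the control side, the lowest log2 ratio of the 43 at -0.53, and only its control-side signal reached the rule. The 2 EphB genes below the rule, Ephb3 and Ephb4, had log2 ratios of 0.17 and -0.12.

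Of the ephrins, 3 of 5 reached the rule, none of which lay above the median gene. Efna1, a GPI-anchored ligand of EphA receptors that is also known from endothelium, had 131 on the tumor side and 174 on the control side, a log2 ratio of -0.41. Efna5 had 473 on the tumor side and 471 on the control side. Efnb1, a transmembrane ligand of EphB receptors, had 85.1 on the tumor side and 91.5 on the control side. Ephrin-A ligands and EphA receptors above the rule thus had medians of -0.20 and 0.24, over 2 and 4 genes. This difference between families was not tested. It rests on single genes, as the ephrin-A median becomes 0.0047 when Efna4, below the rule with 13.2 on the tumor side and 10.1 on the control side, is counted. The EphA median becomes 0.095 when all 8 EphA genes are counted. With the mean over all probe sets, ephrin-A ligands and EphA receptors above the rule had medians of -0.16 and 0.14.

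Of the Slit and Robo genes 1 each was above the rule, and both differed little between the sides on their brightest probe sets. Slit2, a repellent that also promotes branching of SN axons, had 419 on the tumor side and 398 on the control side. Its receptor Robo2 had 1830 on the tumor side and 1811 on the control side. These log2 ratios of 0.08 and 0.02 were both within 0.1 of the median gene, and that of Robo2 was below 0 under the other scalings. Other probe sets of Robo2 above the rule gave 0.07 and -0.28, the latter with 98.1 on the tumor side and 119 on the control side. Slit1, Slit3, Robo1 and Robo3 were below the rule, and their log2 ratios were 0.09, 0.35, 0.32 and -0.82. Ntn1, the founding netrin, had 255 on the tumor side and 212 on the control side, a log2 ratio of 0.27. Its receptors above the rule had lower ratios on their brightest probe sets. Neo1, a receptor of netrins and RGMs, had 122 on the tumor side and 136 on the control side. Unc5c, a repulsive netrin receptor, had 99.5 on the tumor side and 99.6 on the control side, and Unc5b had 69.1 on the tumor side and 71.6 on the control side. All 3 thus lay below the median gene on their brightest probe sets, with a median log2 ratio of -0.05. With the mean over all probe sets, however, Neo1, Unc5c and Unc5b were at 0.18, 0.16 and 1.29 and above it. Their other probe sets were all below the rule. That of Unc5b had 30.3 on the tumor side and 4.91 on the control side, the latter not above the trp control probe sets. Ntn1, whose other probe sets were also below the rule, was at 0.14 with that mean, lower than all 3 of these receptors. Dcc, the attractive netrin receptor, had 1.22 on the tumor side and 0.514 on the control side, not above the trp control probe sets, and no fold is given.

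Rgma, a repulsive ligand of Neo1 and a co-receptor for bone morphogenetic proteins, had 162 on the tumor side and 109 on the control side, a log2 ratio of 0.57 and a fold of 1.49. Its relative Rgmb, known for high expression in DRGs, had 2140 on the tumor side and 2210 on the control side. On their brightest probe sets Rgmb and the receptor Neo1 did not share the ratio of Rgma, with log2 ratios of -0.05 and -0.16. Rgma has 1 probe set on the array, so that no second reading of it could be had.

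Ligands and receptors had similar medians, 0.01 over 23 ligands and 0.04 over 20 receptors above the rule, both below the median gene under each scaling tried, but at 0.097 and 0.11 with the mean over all probe sets, above the 0.087 of the median gene. Ligands spread more widely, with 14 of 23 within a fold of 1.25 in either direction against 16 of 20 receptors and 89.4% of all genes above the rule. Among the ligands, 4 of 10 transmembrane semaphorins and 5 of 6 class 3 semaphorins were within that fold. Sema4g, Sema4d and Sema6c, outside it, met the signal rule through 1 side alone, which favours larger ratios. So did the receptors Ephb1, outside it, and Unc5b, within it. Ratios scatter more at low signal and the genes described here were dimmer than other genes, with a median signal of 155 against 348 for all genes above the rule, so their ratios were also set beside those of the 500 probe sets nearest in mean signal. Of the 43 genes, 29 (67.4%) lay outside the central 50% of their neighbours' ratios, against 50.8% of all genes above the rule. This was not tested.

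Set against the central 95% of the same neighbours, 2 of the 43 genes lay above the range (4.65%, against 2.76% of all genes above the rule) and 4 below it (9.30%, against 2.97% of all genes). Above it lay Sema3d, at 0.64 with an upper bound of 0.64, and Rgma, at 0.57 with an upper bound of 0.49. Below it lay Sema6a, at -0.42 with a lower bound of -0.38, Efna1, at -0.41 with a lower bound of -0.39, Sema4f, at -0.32 with a lower bound of -0.29, and Sema6d, at -0.15 with a lower bound of -0.14. All but Rgma were within 0.05 of the bound. Ephb1 and Sema6b, which had ratios of larger size than most of these, were inside the wider range at their lower signals.

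**Figure D3:**
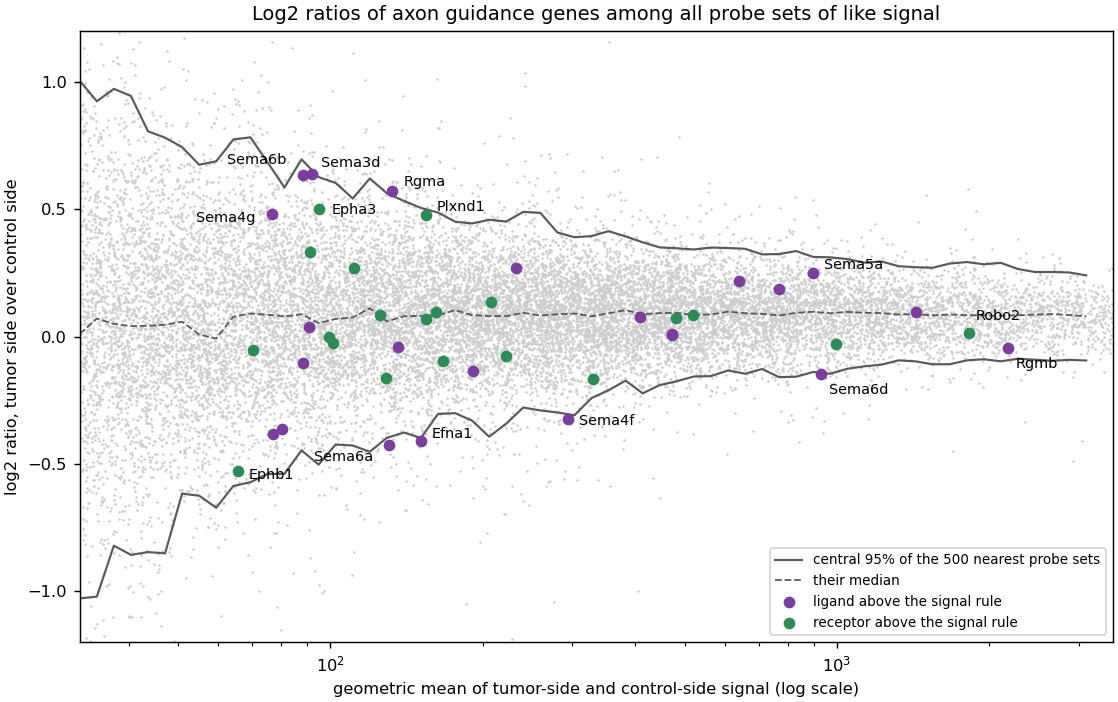
Log2 ratio of signal, tumor side over control side, against the geometric mean of the tumor-side and control-side signals (log axis), with 1 grey point per probe set of the array and coloured points for the 43 axon guidance genes above the signal rule. Solid lines bound the central 95% of the ratios of the 500 nearest probe sets and the dashed line is their median. Sema3d and Rgma lie above the upper line and Efna1, Sema6a, Sema4f and Sema6d below the lower one, most of them by a small margin.

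Different probe sets of the same gene give a technical spread in place of a replicate error, although they can also read different ends or forms of a transcript. Over all genes, log2 ratios from different probe sets of 1 gene had an SD of 0.25 around a signal of 100 and 0.097 around a signal of 1000. Among the axon guidance genes, 12 had at least 2 probe sets above the rule, of which 7 agreed within 0.25 and 6 had probe sets with opposite signs. Slit2 (0.08 and 0.07), Plxnc1 (0.08 and 0.12) and Efna1 (-0.41 and -0.30) were read alike by both probe sets. The lower tumor-side signal of Efna1 was thus read by both probe sets from the same RNA, with 80.2 on the tumor side and 98.4 on the control side on the dimmer probe set. Epha4 differed most between its probe sets. Its brightest gave a log2 ratio of 0.33, and another, with 47.1 on the tumor side and 81.7 on the control side, gave -0.80. Sema5a gave 0.25 on its brightest probe set and -0.41 on another, with 169 on the tumor side and 225 on the control side. For Epha4 and Sema5a the arrays therefore give no single direction. The same holds for Plxna2 and Robo2, whose probe sets above the rule also had opposite signs. Those of Nrp1 (-0.03 and 0.09) and Rgmb (-0.05 and 0.09) had opposite signs too, but agreed within 0.25. Sema6a was lower on the tumor side on both probe sets above the rule (-0.42 and -0.13), but its 3 dim probe sets had higher tumor-side signals, so that the mean over all its probe sets was 0.63. In the mean over all probe sets, 11 of the 43 genes had the opposite sign, among them Efnb1 at 0.56, Sema6c at 0.25 and Plxna1 at -0.51. That of Epha3 was 0.14, less far from 0 than the 0.50 of its brightest probe set. Sema3d, Sema6b, Plxnd1, Rgma and Ephb1 have 1 probe set each.

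**Figure D4:**
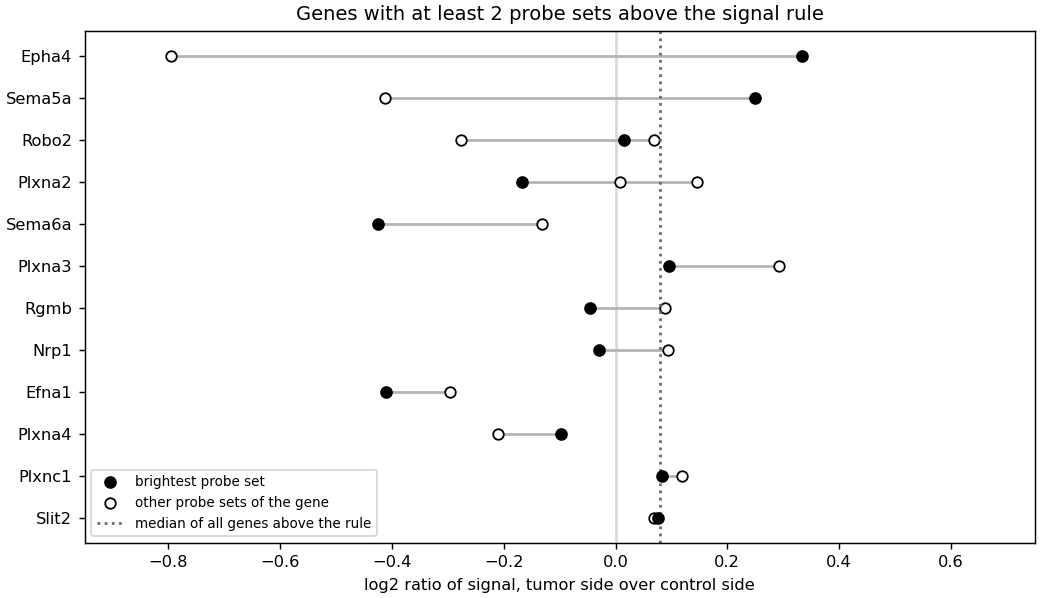
Log2 ratio of signal, tumor side over control side, for each probe set above the signal rule of the 12 axon guidance genes that have at least 2 such probe sets, ordered by their disagreement. Filled points are the brightest probe sets, which represent the genes elsewhere, open points the others, and the dotted line stands at 0.08, the ratio of the median gene. The probe sets of Epha4 (0.33 and -0.80) and Sema5a (0.25 and -0.41) lie on opposite sides of 0, and those of Slit2 nearly coincide.

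Of the 17 genes below the rule, 12 had both signals above the trp control probe sets, 3 had 1 signal above them and 2 had none. At any signal, 4 of the 60 genes were at least 2-fold higher on the tumor side (6.67%, against 4.31% of all genes at any signal) and 3 were at least 2-fold lower (5%, against 3.71% of all genes). Epha2, an EphA receptor of epithelia and vessels, had 57.7 on the tumor side and 25.2 on the control side, a log2 ratio of 1.19. Efnb3, a transmembrane ephrin, had 48.1 on the tumor side and 22.8 on the control side, a log2 ratio of 1.08. Of the 500 probe sets nearest in signal, 2 had a ratio as high as that of Epha2 and 5 one as high as that of Efnb3. Epha2 and Efnb3 were the only genes past a fold of 2 with both signals above the trp control probe sets. With the pseudocount they were at 0.92 and 0.81, under a fold of 2, as was Efnb3 after median centring. Sema3a and Dcc, also past it, were not above these control probe sets on either array. On the tumor side Epha8 (2.24), Unc5a (2.60) and Ntn5 (0.422) were not above them, against control-side signals of 6.86, 5.72 and 12, and no folds are given for them. The remaining 10 genes below the rule were Efna4, Epha7, Epha10, Ephb3, Ephb4, Robo1, Robo3, Slit1, Slit3 and Unc5cl, with log2 ratios from -0.91 for Epha10 to 0.39 for Efna4.

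Of 64 genes listed as co-receptors, cytoplasmic partners and cytoskeletal effectors of guidance receptors, 61 were measured and 54 were above the rule, and none of the 54 was at least 2-fold higher or lower. Their median log2 ratio was 0.04. Rnd1, a small GTPase that binds plexins, had 81.4 on the tumor side and 110 on the control side, and Limk2, a kinase of cofilin, had 134 on the tumor side and 165 on the control side. Both had a lower signal on the tumor side, with log2 ratios of -0.44 and -0.30, while 9 of the 20 genes of the cytoskeletal list lay above the median gene. Among co-receptors and adhesion partners, Chl1, a cell adhesion molecule that associates with neuropilins, had 567 on the tumor side and 447 on the control side, and Itga3, an integrin subunit, had 283 on the tumor side and 228 on the control side. Ptk7 followed with 342 on the tumor side and 313 on the control side. Of the 9 genes of this list above the rule only these 3 lay above the median gene. The median log2 ratio of the list was 0.0075. Cytoplasmic adaptors and kinases, with 25 genes above the rule, all lay within a fold of 1.25, the largest ratios being those of Yes1 at 0.24, Farp2 at 0.21 and Abl1 at 0.18.

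The ganglia carried their defining SN transcripts, with all 9 measured SN markers above the rule, among them Prph with 8852 on the tumor side and 8896 on the control side. Lists of markers of other cells differed between the sides as well, and no marker was listed at 0. Fibroblast and meningeal markers had a median log2 ratio of 0.22, with 10 of 10 above the rule and summed signals of 33610 on the tumor side and 30910 on the control side. Endothelial markers had 0.17, with 5 of 7 above the rule and summed signals of 1653 on the tumor side and 1497 on the control side. SN markers had -0.11, with summed signals of 36444 on the tumor side and 37017 on the control side. Bone and cartilage markers had 0.98, with 6 of 9 above the rule and summed signals of 2216 on the tumor side and 1192 on the control side. Skeletal muscle markers had -1.44, with 8 of 10 above the rule and summed signals of 2185 on the tumor side and 2815 on the control side. As in the other lists, these sums cover all measured markers. Most of them came from Myh1, with 1742 on the tumor side and 1583 on the control side, a log2 ratio of 0.14. Glial and macrophage markers had 0.07 and 0.18, with 7 of 8 and 5 of 8 above the rule. Erythroid and granulocyte markers had -0.48 and -1.19, with only 2 of 3 and 3 of 6 above the rule. Over all 6 granulocyte markers at any signal the median was -0.52. Semaphorins, ephrins and their receptors are expressed in several of these cell types, and the part of such cells in the ratios of Sema3d, Plxnd1, Rgma and Efna1 was not tested.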

How the data were processed

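RNA of the tumor-side and control-side DRGs was hybridized by the authors to Affymetrix GeneChip arrays of the rat genome, 1 per side, from 100 ng of total RNA. The deposited intensity values are MAS 5.0 signals on a linear scale (the submitters' processing notes name MAS5), computed by the authors at default settings for 31099 probe sets, 57 of them controls. Background correction and probe summary are part of these values, and the scaling between arrays is not stated in them. The trimmed mean signal was 287 on the tumor side and 271 on the control side, and no further scaling was applied.

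Log2 ratios of tumor side over control side were computed without a pseudocount. A single gene symbol was paired with 20826 probe sets in the platform annotation, several symbols with 436 and none with 9780. All 60 members kept their symbol in RefSeq (GRCr8). The members had 102 probe sets. The probe set that stood for a gene was the one brightest on average over both arrays. The signal rule and folds are those of the report. No test was possible with a single array a side, and the number of arrays limits the precision. The neighbours of a gene were the 500 probe sets nearest in mean log2 signal, an addition made after seeing the data, as were the counts past a fold of 1.5 under the other settings. The members and gene lists were chosen with earlier results of these data known. Named genes were those past a fold of 1.5 above the rule, the highest and lowest of each family, those past a fold of 2 below the rule with the higher signal above the trp control probe sets, 18 ligands and receptors fixed by name, of which Sema7a and Efnb2 were not analysed here, and the 3 largest ratios of each effector list, of which 1 is not reported here. The other members were added to account for all of them. Alternatives were quantile normalization, median centring, loess (span 0.3), a pseudocount of 11.1 (percentile 20 of all signals), other signal filters, averaging every probe set of a gene, leaving out probe sets open to cross-hybridisation, and folds of 1.5 and 3. The ratio and fold counts were tested on simulated data. Scripts ran in Python 3.11.15 with matplotlib 3.10.9, statsmodels 0.14.6, pandas 2.3.3 and numpy 2.4.6.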

Additional observations from a re-analysis of the deposited data

How the results depend on the processing

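Counts of genes past a fold of 2 above the signal rule were 0 higher and 0 lower on the tumor side. They became 4 and 3 without a signal filter and stayed at 0 with the other scalings and the pseudocount. The stricter filters and a fold of 3 could only leave these counts at 0, as they pick from the same ratios. With a fold of 1.5 there were 2 higher and 0 lower in the deposited values, 0 higher and 1 lower under each other scaling, and 0 and 0 with the pseudocount, settings combined after seeing the data. With a fold of 2 and the mean over all probe sets there were 2 higher, Sema3f and Unc5b, through dim second probe sets. Of 139 medians recomputed over families, roles and all genes described, 33 changed sign. With the mean over probe sets the medians of ligands, of receptors, of ephrin-B ligands and of the Dcc, Neo1 and Unc5 family moved above the median gene. The median of Robos, which is Robo2 alone, was -0.080 after quantile normalization, -0.069 after centring, -0.065 after loess and -0.065 with the mean over probe sets. Without a signal filter the medians of ephrin-A ligands, ephrin-B ligands and netrins were 0.0047, 0.49 and -2.28, as dim genes enter. With the filter at percentile 75 those of ephrin-A ligands and repulsive guidance molecules were 0.0047 and -0.046, from 1 gene each, and where each signal had to reach its median that of EphB receptors was 0.27, from Ephb6 alone. The mean over probe sets gave 0.56 for ephrin-B ligands. Of 405 named-gene values, 27 changed sign. The signal filters leave the ratio of a named gene as it is, so values under them could not change sign. Leaving out probe sets open to cross-hybridisation changed none of these ratios either. No paired analysis was possible because the design holds 1 array a side. Low signal limits precision, as the SD between probe sets was 0.63 around a signal of 25.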
